A study of Sus scrofa with 6 samples.

Results

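The genes described here make prostaglandins and prostacyclin from arachidonic acid or bind them at the cell surface. Of 10 listed symbols, 9 matched a gene by name among 28965 Ensembl genes: the cyclooxygenases PTGS1 and PTGS2, the prostacyclin synthase PTGIS, the prostaglandin E synthases PTGES, PTGES2 and PTGES3, and the receptors PTGIR, PTGER4 and PTGFR. PTGDS, the lipocalin-type prostaglandin D synthase, matched no row by name and was not analysed here. All 9 passed the filter on low counts, which left 14566 genes.

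Libraries came from cervical spinal cord of 6 male Sus scrofa aged 140 days, 1 library per animal. The control group held 3 wildtype pigs, and the other group held 3 pigs in which UBE3A was deleted on the allele inherited from the mother. UBE3A encodes a ubiquitin ligase that neurons make mainly from the maternal copy, and loss of that copy underlies Angelman syndrome. The sources used here do not say how the deletion was made or whether animals shared litters.

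Cyclooxygenases turn arachidonic acid into prostaglandin H2, an unstable intermediate that each terminal synthase turns into a different prostanoid. PTGIS, a cytochrome P450 enzyme, makes prostacyclin, which relaxes vessels and restrains platelets and is known as a product of vessel walls. Prostaglandin E2 is known in the spinal cord as a mediator of pain sensitisation, and its EP4 receptor is the product of PTGER4.

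The set was chosen on exon read counts in the comparison that is described here. In that comparison PTGIS shared with DCN the lowest adjusted p of all genes, 0.0127 (edgeR's quasi-likelihood test, Benjamini-Hochberg adjusted). The members' values below are therefore a description, given with standard errors (SE) and 95% intervals and with no test of their own. The intervals are per gene and not adjusted for the number of genes.

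Libraries held 17181003 to 22492366 exon reads. UBE3A, the deleted gene, stood at 57.0 to 65.5 CPM (read counts relative to library size, scaled by the trimmed mean of M values, TMM) in wild-type cord and at 21.4 to 27.1 CPM in deletion cord, so each library carried the level of its label. Myelin, astrocyte and neuron markers were present in all libraries. Wild-type replicate 3 stood apart: HOXC8, chosen after its values were seen, was at 1.97 CPM there and at 23.2 to 32.1 CPM in the other 5 libraries, and its summed neuron markers were the lowest of all, 992 CPM. Single neuron markers differed: NEFL was at 385 CPM there, against 1080 and 1860 CPM in wild-type replicates 1 and 2. RBFOX3 was at 11.2 CPM there, against 8.57 and 9.55 CPM. Some results are also given without wild-type replicate 3.

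PTGIS (ENSSSCG00000007463) was the member that differed most between the genotypes. Its level was 24.7, 22.0 and 19.9 CPM in wild-type replicates 1 to 3, from 421, 507 and 434 reads. For deletion replicates 1 to 3 it was 5.29, 4.09 and 4.41 CPM, from 106, 78 and 102 reads. The groups were far apart, with the lowest wild-type library well above the highest deletion library, and neither group held an odd library. Exact 95% counting intervals reached down to 18.1 CPM in wild-type replicate 3 and up to 6.40 CPM in deletion replicate 1. Group means were 22.2 ± 2.40 and 4.6 ± 0.622 CPM (SD, 3 libraries per group), and the log2 fold change was -2.27 (SE 0.16, interval -2.65 to -1.89). The deletion level was thus 20.7% of the wild-type level, with an interval of 16.0 to 26.9%.

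No single animal set the size of this difference, but the call depended on several. PTGIS was chosen on these same reads, so the refits below describe that dependence and are no test of the difference. Leaving out each library in turn gave log2 fold changes between -2.40, without wild-type replicate 3, and -2.19. The edgeR adjusted p ranged from 0.00262 to 0.138 over these fits and missed the threshold of 0.05 without wild-type replicate 1 (0.138), deletion replicate 2 (0.0886) or deletion replicate 3 (0.0705). The animal IDs start with 14 in 1 pig per genotype and with 15 in the other 2, a prefix whose meaning is not given. The PTGIS level in the deletion was 0.214 times that in wild-type cord within prefix 14 and 0.203 times within prefix 15, where 2 against 2 animals gave an edgeR adjusted p of 0.33. PTGIS is 4.76-fold lower in the authors' deposited table.

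**Figure D1:**
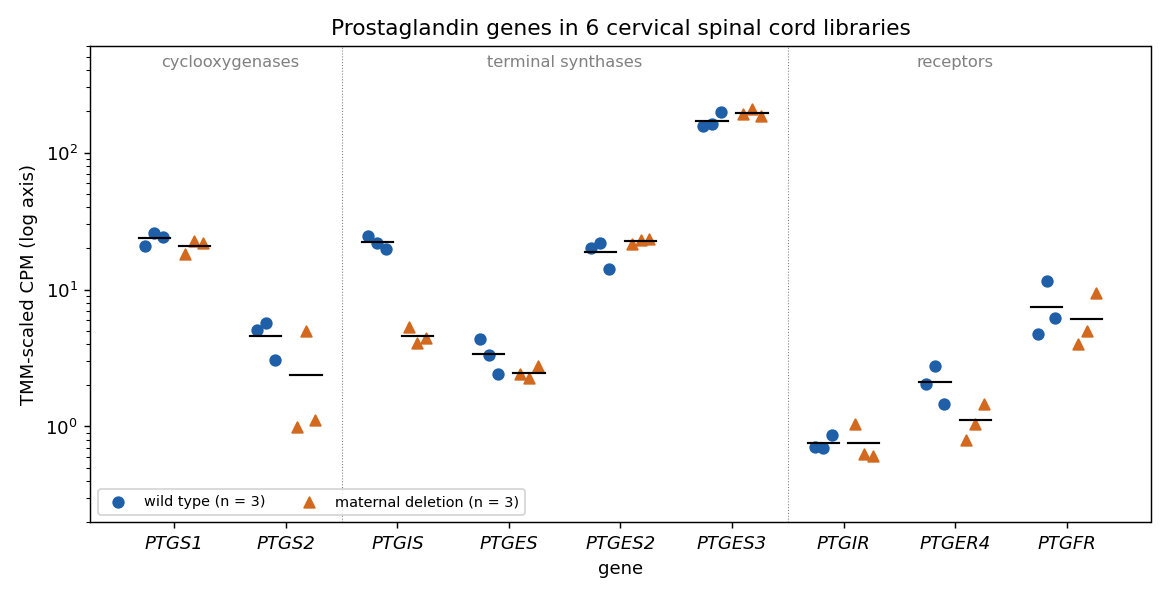
TMM-scaled CPM on a log axis for the 9 genes in each library, wild type as blue circles and maternal deletion as orange triangles, with black bars at the means of 3 libraries. PTGIS separates the groups widely (19.9 to 24.7 against 4.09 to 5.29 CPM), while deletion replicate 2 lies among the wild-type libraries for PTGS2 (4.99 CPM).

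Neither cyclooxygenase separated the groups as PTGIS did. PTGS1 (ENSSSCG00000005533), the form that most tissues make constantly, was at 20.7, 26 and 24.3 CPM in wild-type cord and at 18.3, 22.5 and 21.9 CPM in deletion cord. These ranges overlapped, and the log2 fold change was -0.18 (SE 0.14, interval -0.50 to 0.14), with ratios of 0.885 and 0.882 within prefixes 14 and 15. A loss of PTGS1 as large as that of PTGIS lies outside this interval.

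PTGS2 (ENSSSCG00000015579), the inducible form and itself an early response gene, split the deletion group. It was at 5.05, 5.69 and 3.08 CPM in wild-type cord, and in the deletion replicates at 0.999, 4.99 and 1.12 CPM, from 20, 95 and 26 reads. Deletion replicates 1 and 3 lay below every wild-type library, while deletion replicate 2 lay inside the wild-type range. The log2 fold change was -0.97 (SE 0.62, interval -2.41 to 0.47), and it was -2.11 without deletion replicate 2 and -0.60 without deletion replicate 1. Without wild-type replicate 3 it was -1.26. Deletion over wild-type ratios were 0.198 within prefix 14 and 0.697 within prefix 15.

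Early response genes as a list did not share that split. FOS, a transcription factor that neurons and glia switch on within minutes of a stimulus, was at 123, 113 and 95.3 CPM in wild-type cord and at 21.2, 17.4 and 9.64 CPM in deletion cord. Of 8 such markers 4 were past the threshold, all lower, where 0.844% of all tested genes were past it and lower. That count was 7 without wild-type replicate 3, 0 or 1 without any other single library, and 0 with the ID prefix as a term. It was 7 by DESeq2 and 7 by limma voom, by which 9.3% and 3.05% of all tested genes passed. The summed level of the 8 markers was 489 to 783 CPM in wild-type cord against 122 to 223 CPM in deletion cord. In deletion replicate 2 PTGS2 stood at 28.6% of the FOS level, against 3.23 to 5.04% in wild-type cord, 4.71% in deletion replicate 1 and 11.7% in deletion replicate 3. The same library had the highest summed neuron markers of all, at 10300 CPM, and their part in its PTGS2 level was not tested. Most of that sum was NEFL, at 6350 CPM. SNAP25, STMN2, TUBB3 and ELAVL4 were also highest in deletion replicate 2. SYT1 was lowest there, at 33.8 CPM, and RBFOX3 at 16.0 CPM was level with deletion replicate 3 at 16.1 CPM.

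Of the remaining terminal synthases, none showed a difference near that of PTGIS. PTGES (ENSSSCG00000005688), the membrane-bound inducible enzyme coupled to PTGS2, was at 4.34, 3.30 and 2.43 CPM in wild-type cord and at 2.40, 2.26 and 2.77 CPM in deletion cord. Deletion replicate 3 lay above wild-type replicate 3, so the groups overlapped, and the log2 fold change was -0.43 (SE 0.28, interval -1.09 to 0.22). Leaving out wild-type replicate 3 gave -0.68, and leaving out wild-type replicate 1 gave -0.21. Ratios of deletion to wild type were 0.552 and 0.876 for PTGES within prefixes 14 and 15. PTGES2 (ENSSSCG00000022655), another membrane-associated synthase, was at 20.0, 21.9 and 14.1 CPM in wild-type cord and at 21.5, 22.9 and 23.2 CPM in deletion cord. Only wild-type replicate 3 stood clearly below the rest, and the log2 fold change of 0.27 (SE 0.17, interval -0.13 to 0.67) became 0.0429 without that library.

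PTGES3 (ENSSSCG00000000406), the cytosolic synthase better known as the HSP90 co-chaperone p23, was the most abundant member. It was at 155, 161 and 197 CPM in wild-type cord and at 190, 208 and 184 CPM in deletion cord, with overlapping ranges and a log2 fold change of 0.18 (SE 0.14, interval -0.13 to 0.50). Processed copies of PTGES3 are known in mammalian genomes, and how the authors counted reads shared with such copies is not given, so its level is uncertain.

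Among the receptors, PTGIR (ENSSSCG00000026602) had the fewest reads. This receptor for prostacyclin was at 0.704, 0.694 and 0.872 CPM in wild-type cord and at 1.05, 0.630 and 0.605 CPM in deletion cord, from 12 to 21 reads per library, where 3 reads correspond to 0.130 to 0.176 CPM. The groups overlapped, and the log2 fold change of 0.00338 (SE 0.39, interval -0.90 to 0.90) changed sign under the other 3 scalings. The interval is wide at this depth, yet it does not reach a difference of the size seen for PTGIS. The deletion over wild-type ratio was 1.49 within prefix 14 and 0.788 within prefix 15.

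PTGER4 (ENSSSCG00000024439), the EP4 receptor for prostaglandin E2, was at 2.05, 2.78 and 1.47 CPM in wild-type cord and at 0.799, 1.05 and 1.47 CPM in deletion cord. All 3 deletion libraries were at or below the lowest wild-type library, but wild-type replicate 3 with 32 reads and deletion replicate 3 with 34 reads were level within their counting intervals. The log2 fold change was -0.92 (SE 0.38, interval -1.80 to -0.0386), and it was -0.68 without wild-type replicate 2 and -1.23 without deletion replicate 3. Without wild-type replicate 3 it was -1.19. Ratios within prefixes 14 and 15 were 0.389 and 0.593.

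PTGFR (ENSSSCG00000039548), the receptor for prostaglandin F2 alpha, varied more within the groups than between them. It was at 4.75, 11.5 and 6.20 CPM in wild-type cord and at 3.99, 4.99 and 9.38 CPM in deletion cord. Wild-type replicate 2 and deletion replicate 3 were the high libraries, and the log2 fold change of -0.29 (SE 0.42, interval -1.27 to 0.69) became 0.15 without wild-type replicate 2 and -0.79 without deletion replicate 3. Without wild-type replicate 3 it was -0.48.

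Read against all genes, 1 of the 9 members was past the threshold (adjusted p under 0.05 over all genes, edgeR quasi-likelihood test) and lower, and 0 were past it and higher. The shares over all tested genes were 0.844% lower and 0.178% higher. In 2 of the 9, PTGIS and narrowly PTGER4, all deletion libraries lay below all wild-type libraries, and in 0 they lay above, against 11.2% below and 15.2% above over all genes. With TMM scaling the log2 fold changes were negative for 6 of the 9, all but PTGES2, PTGES3 and PTGIR, and that of PTGIR turned negative under the other scalings. The median of the 9 was -0.29, beside 0.0472 over all tested genes. No other member was past the threshold under any of the 15 alternatives, DESeq2 and limma voom included. Because the choice of genes used this contrast, nothing is read from these counts.

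**Figure D2:**
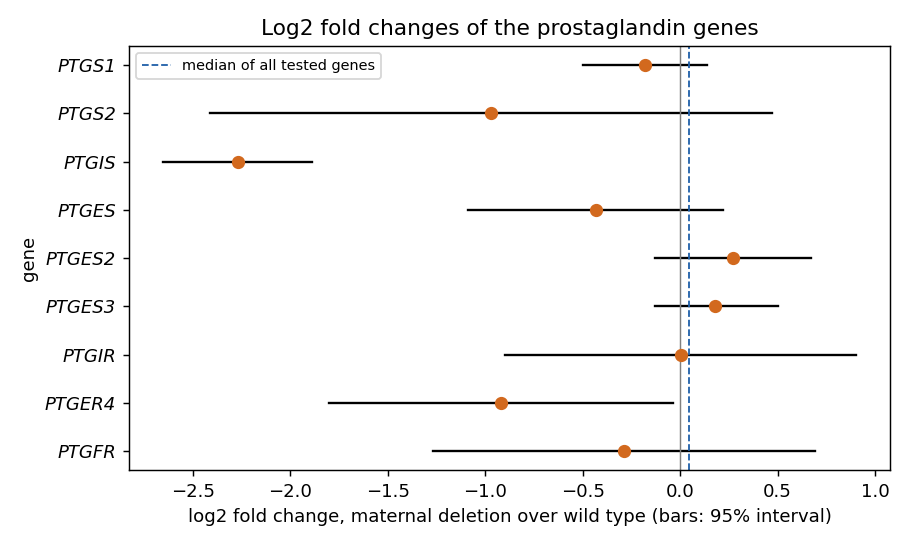
Log2 fold change of maternal deletion over wild type for each of the 9 genes (points) with 95% intervals (bars), 3 libraries per group; the dashed line marks the median of all tested genes, 0.0472. The PTGIS interval, -2.65 to -1.89, lies below the point estimates of all other members, and the PTGS2 interval, -2.41 to 0.47, is the widest.

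Per unit of transcript length, PTGIS dropped in the order of the members. On the authors' length-corrected TPM scale it ranked 4 of 9 in wild-type cord, at 11.6 ± 0.217 TPM (SD, n = 3), and 6 of 9 in deletion cord, at 2.31 ± 0.338 TPM. PTGES3 led both groups, at 267 ± 68.3 and 285 ± 7.67 TPM, and its range overlapped that of no other member. In wild type it was followed by PTGS1 at 19.7 TPM, PTGES2 at 13.3 TPM and PTGIS, each overlapping its neighbour in the order. Next came PTGES at 7.20 TPM, PTGFR at 4.08 TPM and PTGS2 at 3.40 TPM. PTGER4, at 1.31 TPM, and PTGIR, at 0.561 TPM, were the lowest, and their ranges did not overlap.

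In the deletion group the gap below PTGES2 opened. PTGS1 at 16.5 TPM and PTGES2 at 15.6 TPM overlapped, and PTGES at 5.18 TPM came next with no overlap. From PTGES down to PTGIR at 0.531 TPM each member overlapped the next, PTGIS among them, between PTGFR at 3.21 TPM and PTGS2 at 1.65 TPM. The PTGS1 to PTGS2 ratio of TPM levels was 4.51, 5.03 and 8.68 in wild-type cord and 20.2, 4.97 and 21.4 in deletion replicates 1 to 3.

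Genes of connective tissue ran closest to PTGIS across the 6 libraries. Likeness was the root mean square difference between log2 CPM profiles, each centred on its own mean over the 6 libraries, among 11636 genes with a mean log2 CPM of at least 1. COL1A2, a chain of fibrillar collagen I, came first at 0.149, where PTGIS itself spread by 1.13 around its mean. FNDC1 at 0.211, the collagen VI gene COL6A1 at 0.252, the fibril-associated collagen gene COL14A1 at 0.253 and PCOLCE at 0.259, which encodes an enhancer of procollagen processing, followed. COL1A2 stood at 821, 637 and 615 CPM in wild-type cord and at 160, 101 and 145 CPM in deletion cord. PTGIS was 3.01, 3.46 and 3.24% of the COL1A2 level in wild-type cord and 3.30, 4.06 and 3.05% in deletion cord, so the ratio overlapped between the genotypes. Its share of the DCN level, in contrast, was higher in the deletion libraries, at 16.6 to 20.7% against 12.4 to 15.1%. The 5 genes were picked for this likeness, which any gene with a similar genotype difference tends to have.

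Within wild-type cord PTGIS kept closer to the summed markers of meninges and fibroblasts than to those of smooth muscle. The 12 meninges and fibroblast markers summed to 3057, 2870 and 2430 CPM in wild-type cord and to 682, 378 and 523 CPM in deletion cord. Of the 12, 6 were past the threshold, all lower, where 0.844% of all tested genes were past it and lower. Per 1000 CPM of that sum PTGIS was at 8.08, 7.67 and 8.20 CPM in wild-type cord and at 7.76, 10.8 and 8.42 CPM in deletion cord. Of the 6 markers not past it, FOXC2, ALDH1A2, FOXC1 and SLC6A13 had log2 fold changes of -2.68, -1.62, -1.31 and -0.97, and SLC13A3 and PDGFRA had -0.13 and 0.0319. Without wild-type replicate 3, 8 of the 12 were past it, and without wild-type replicate 1, deletion replicate 2 or deletion replicate 3 none was (edgeR). With the ID prefix as a term 2 were, by DESeq2 9 and by limma voom 8. Of all tested genes 9.3% passed by DESeq2 and 3.05% by limma voom. COL1A1, COL1A2 and COL3A1 made up most of the summed level, and COL1A2 is the gene picked above as most like PTGIS. Single markers differed: in wild-type replicates 1 to 3 DCN fell as PTGIS did, at 187, 177 and 132 CPM. LUM was at 53.1, 79.7 and 29.4 CPM there, and PDGFRA at 55.3, 57.8 and 72.2 CPM. PTGIS itself was at 11.6, 11.4 and 11.9 TPM there, so it fell in CPM and not in TPM.

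Smooth muscle markers were lower too but varied among the wild-type animals in a way PTGIS did not. The 10 smooth muscle and mural markers summed to 1752, 3192 and 514 CPM in wild-type cord and to 222, 168 and 218 CPM in deletion cord. Of the 10, 4 were past the threshold, all lower, where 0.844% of all tested genes were past it and lower. That count was 8 without wild-type replicate 3, 0 without any one of the other 5 libraries, and 1 with RLE scaling. It was 0 with total-count scaling, with no filter or with the ID prefix as a term. By DESeq2 it was 8 and by limma voom 7, where 9.3% and 3.05% of all tested genes passed. ACTA2, the actin of smooth muscle, was 11.2 times higher in wild-type replicate 2 than in replicate 3, where PTGIS levels differed by 1.24 times at most among wild-type libraries. PDGFRB, RGS5, ABCC9 and KCNJ8, which mark pericytes, gave log2 fold changes of -1.27, -0.89, -0.79 and -0.39 and were not past the threshold.

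Endothelial markers differed less than PTGIS. The 7 measured markers summed to 374 to 584 CPM in wild-type cord and to 259 to 358 CPM in deletion cord. Of them 0 passed by edgeR's quasi-likelihood test, against 4 by DESeq2 and 2 by limma voom, where 9.3% and 3.05% of all tested genes passed. PTGIS per 1000 CPM of that sum was at 53.9, 37.7 and 53.3 CPM in wild-type cord and at 14.8, 15.8 and 15.4 CPM in deletion cord, with no overlap. The edgeR count was 3 without wild-type replicate 3, 2 with no filter, and 1 with total-count or upper-quartile scaling. The median log2 difference of the list was -0.81. The groups did not overlap for PECAM1 (-1.66), CDH5 (-1.09), VWF (-0.98) and TEK (-0.81), while they overlapped for CLDN5 (-0.33), FLT1 (-0.27) and KDR (0.0933). Over all tested genes, all deletion libraries lay below all wild-type libraries in 11.2%.

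Of the other marker lists, the Schwann cell and neuron sums did not overlap between the genotypes, and the rest did. The 6 Schwann cell markers summed to 2710 to 5390 CPM in wild-type cord and to 1130 to 1970 CPM in deletion cord. Only PRX, 1 of 6, was past the threshold and lower, as were 0.844% of all tested genes. That count was 3 without wild-type replicate 3, 2 with upper-quartile scaling, and 4 by DESeq2 or by limma voom. It was 0 without any one of the other 5 libraries, with RLE or total-count scaling, with no filter or with the ID prefix as a term. Of all tested genes 9.3% passed by DESeq2 and 3.05% by limma voom. SOX10 and PMP2 of this list gave log2 fold changes of 0.13 and -0.56. Summed neuron markers were 992 to 3510 CPM in wild-type cord and 4860 to 10300 CPM in deletion cord, with 0 of 7 past it by edgeR, 1 by edgeR with no filter and 3 by DESeq2. NEFL was the largest single part of that sum in every library. Oligodendrocyte, astrocyte and microglia sums overlapped between the groups, at 75500 to 130000 against 85800 to 128000 CPM, 20200 to 24300 against 20000 to 25700 CPM, and 606 to 631 against 572 to 623 CPM. Blood markers, whose member HBM was at 0 in 1 library, and ependyma markers overlapped as well, at 38.0 to 195 against 9.85 to 116 CPM and 19.0 to 35.3 against 19.0 to 38.4 CPM. The part of these tissue differences in the PTGIS level was not tested, and in bulk tissue fewer cells of a type and less RNA per cell cannot be told apart.

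**Figure D3:**
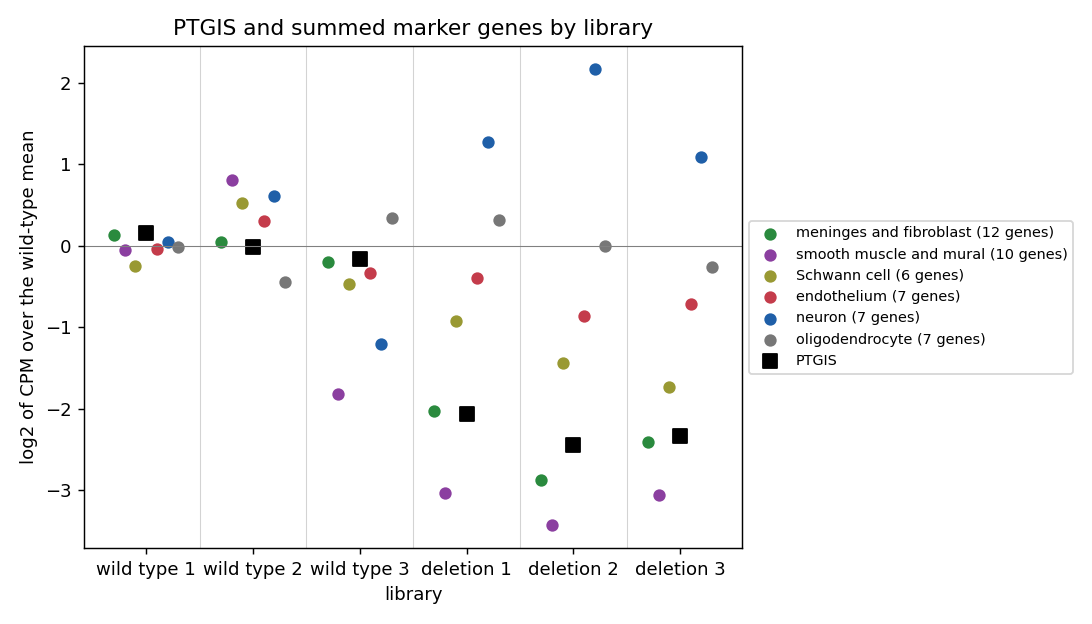
Log2 of the CPM in each library over the wild-type mean, for PTGIS (black squares) and for the summed CPM of 6 marker lists (coloured points). Of the 6 sums, that of meninges and fibroblast markers lies nearest to PTGIS in all 6 libraries, while the smooth muscle sum spans 514 to 3192 CPM within wild-type cord.

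PTGS1 and PTGS2 had nearest neighbours of other kinds. The genes closest to PTGS1 were NCOA5, TP53INP1, ARL11, FAM161A and AP5S1, at 0.0456 to 0.0545, where PTGS1 spread by only 0.161 around its mean. Those closest to PTGS2 were RCN3, TCAP, HSP70.2, RGS1 and TNNI3, at 0.462 to 0.524 against a spread of 0.99, so no gene matched PTGS2 as tightly as COL1A2 matched PTGIS. PTGS2 had 20 to 131 reads per library against 78 to 507 for PTGIS, and the part of counting noise in this was not tested. HSP70.2, a stress-inducible chaperone gene, was at 432, 437 and 404 CPM in wild-type cord and at 226, 419 and 137 CPM in deletion cord. Its level in deletion replicate 2 lay near wild type, but the gene was picked for its likeness to PTGS2, which has that pattern. Near-identical HSP70 copies make the HSP70.2 count uncertain.

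The wider arachidonate pathway, was given by 6 lists of genes outside the set, and none of their genes that passed the filter on low counts had a log2 fold change of the size seen for PTGIS. PPARG, which did not pass it, is listed as 5.67-fold lower in the authors' deposited table and was high in wild-type replicate 2 alone. Of 61 tested genes 0 passed in either direction by edgeR's quasi-likelihood test, 14 had an unadjusted p under 0.05 (20.2% of all genes did), 3 passed by DESeq2 (9.30% of all genes did) and 2 by limma voom (3.05% of all genes did). The genes that passed by DESeq2 were DAGLA, PPARD and ADCY4, and those by limma voom were DAGLA and ADCY4. The median log2 fold change over the 61 was 0.0243, beside 0.0472 over all tested genes, and single genes ranged from -1.27 to 1.14.

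Among 9 tested genes of arachidonate release the median was -0.0234, and -0.091 to 0.0131 when each library was left out in turn. DAGLA, which makes the endocannabinoid 2-arachidonoylglycerol in neurons, was at 28.7 ± 2.03 CPM in wild-type cord and 41.8 ± 2.60 CPM in deletion cord, a log2 fold change of 0.54 (SE 0.11; edgeR adjusted p 0.0684, DESeq2 0.00883). PLA2G4A, the cytosolic phospholipase that feeds cyclooxygenases, was at 9.39 ± 0.859 and 6.26 ± 1.1 CPM, a value of -0.58 (SE 0.19; edgeR adjusted p 0.142). PLA2G4E, another member of that family, gave 1.14 (SE 0.30; edgeR adjusted p 0.0977) at low levels of 1.1 and 2.44 CPM, and PLA2G6 gave 0.20 (SE 0.15). The groups did not overlap for the first 3 of these genes. All were named for their small p. Over all tested genes, all deletion libraries lay below all wild-type libraries in 11.2% and above them in 15.2%.

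Synthases of other prostanoids had a median of -0.0686 over 5 genes, which ranged from -0.41 without deletion replicate 3 to -0.0299 without deletion replicate 2. TBXAS1, which makes thromboxane, the functional opponent of prostacyclin on platelets and vessels, had 54 reads over all libraries and was at 0.625 ± 0.130 and 0.250 ± 0.145 CPM, a log2 fold change of -1.27 (SE 0.53; edgeR adjusted p 0.234). AKR1B1, an aldose reductase that can form prostaglandin F2 alpha, was at 95, 217 and 90.9 CPM in wild-type cord and at 85.4, 85.2 and 80.0 CPM in deletion cord. Wild-type replicate 2 was the high library, and the log2 fold change was -0.68 (SE 0.33). PRXL2B and CBR3 gave 0.17 and -0.0686 (SE 0.22 and 0.17), and HPGDS, the haematopoietic prostaglandin D synthase, had no read in any library.

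Breakdown and transport genes had a median of -0.13 over 7 genes, or -0.24 without wild-type replicate 1 and -0.20 without deletion replicate 3. SLCO2A1, the prostaglandin transporter, and HPGD, the dehydrogenase that inactivates prostaglandins, gave -0.44 (SE 0.19) and -0.39 (SE 0.19), PTGR1 gave -0.56 (SE 0.30), and SLCO3A1, a transporter with prostaglandin substrates, gave 0.50 (SE 0.14). Their edgeR adjusted p ranged from 0.112 to 0.354.

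Other prostanoid receptors and nuclear receptors had a median of -0.0153 over 7 genes, which ranged from -0.37 without wild-type replicate 3 to 0.00393 without deletion replicate 2. PPARD, a nuclear receptor for which prostacyclin has been proposed as a ligand, was at 28.0 ± 1.55 CPM in wild-type cord and 21.0 ± 1.26 CPM in deletion cord, a log2 fold change of -0.41 (SE 0.11; edgeR adjusted p 0.106, DESeq2 0.0295). The prostaglandin E2 receptors PTGER1, PTGER2 and PTGER3 gave -0.75 (SE 0.44), -0.42 (SE 0.55) and 0.28 (SE 0.54), all with overlapping groups.

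The lipoxygenase branch, which makes leukotrienes from the same fatty acid, had a median of -0.19 over 10 genes, which ranged from -0.36 without wild-type replicate 1 to -0.0413 without wild-type replicate 2. LTC4S, the leukotriene C4 synthase, gave 0.34 (SE 0.13), and CYSLTR2, a leukotriene receptor, -1.02 (SE 0.43). The enzymes DPEP2 and GGT5, which process leukotrienes, gave -0.79 (SE 0.40) and -0.36 (SE 0.21).

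The list of cyclic AMP effectors holds genes that make, break down or respond to cyclic AMP, through which the prostacyclin and EP4 receptors signal. Its median was 0.19 over 23 genes, and so mixes genes of opposed function. The median was 0.0904 with total-count scaling, and 0.11 with upper-quartile scaling or in prefix 15 alone. The median of all tested genes fell as well, from 0.0472 to -0.0437, -0.0299 and -0.0132 in these settings. ADCY4, an adenylyl cyclase, was at 10.7 ± 3.29 CPM in wild-type cord and 5.29 ± 0.448 CPM in deletion cord, a log2 fold change of -1.01 (SE 0.26; edgeR adjusted p 0.0934, DESeq2 0.00967). Without wild-type replicate 3 it passed by edgeR too. The adenylyl cyclase ADCY2 and the protein kinase A catalytic genes PRKACB and PRKACA gave 0.50 (SE 0.14), 0.48 (SE 0.16) and 0.44 (SE 0.15), with edgeR adjusted p of 0.113, 0.15 and 0.153 and no overlap between the groups. These genes were named for their small p. All deletion libraries lay above all wild-type libraries in 15.2% of all tested genes.

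**Figure D4:**
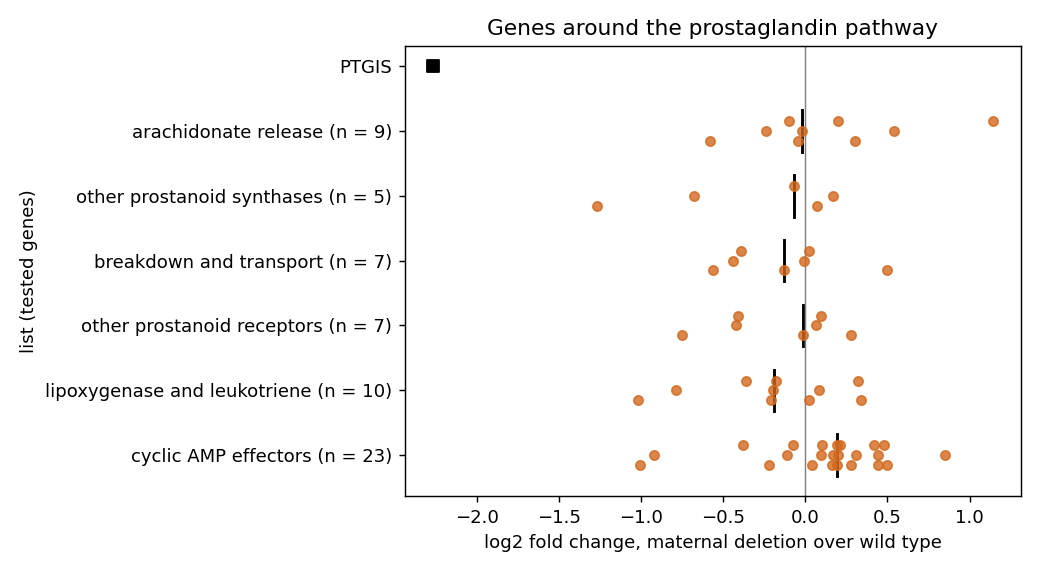
Log2 fold change of maternal deletion over wild type for each tested gene of 6 pathway lists (orange points; black bars at the list medians), with PTGIS as a black square. All 61 genes lie between -1.27 and 1.14, and PTGIS lies at -2.27.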

How the data were processed

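Frozen tissue was used, per the labels' protocols, and stranded mRNA libraries were read as pairs on an Illumina NovaSeq. The sources used here give no aligner, counting program, annotation or genome build, nor whether counting used strand. No coordinates are printed, and reads from antisense partners cannot be told apart.

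Per the file headers, the authors deposited exon read counts per gene, with RPKM and TPM columns. TPM was used to order genes by level, and RPKM was not used. A deposited signal column headed CPM summed to 917605 to 1075791 per library and was not used. The authors' deposited table of the comparison holds fold changes (a signed score), p-values and false discovery rates, and its test is not stated.

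Counts were filtered (filterByExpr), TMM-scaled and fitted in edgeR 4.0.16 under R 4.3.3 (robust quasi-likelihood fit, Benjamini-Hochberg adjustment over all 14566 genes). SEs derive from the quasi-likelihood statistic. Intervals on counts are exact Poisson limits and cover counting error only, since reads carry no molecular identifiers. Libraries differed pairwise by more than sampling noise in all 15 pairs. On simulated data with known changes the tests gave the right direction, and the share of false calls exceeded the nominal rate. Replicate numbers only name animals. The labels name separate animals.

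The members, the 6 pathway lists and the 11 marker lists were chosen with earlier results of these data known. A symbol came from the files for 16246 genes and from a name table for 777 more. Genes named are all members, UBE3A, up to 4 genes by p in each pathway list, and the 5 genes most like PTGIS, PTGS1 and PTGS2. Marker genes named singly, and PTGIS per marker, were chosen after their values were seen. Of 83 pathway symbols, which include second names of genes already listed, 73 had a row and 61 were tested. Alternatives were 3 other scalings, 2 other filters, DESeq2 1.42.0, limma 3.58.1 (voom, quality weights), a term for the ID prefix, prefix 15 alone, and leaving out each library.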

Additional observations from a re-analysis of the deposited data

How the results depend on the processing

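The PTGIS log2 fold change ranged from -2.40 to -2.19 over all 15 alternatives, each within 1 SE (0.16) of -2.27. PTGIS lost its call in 4 of them, all with fewer libraries. Of the other members, PTGS2 moved by more than its SE without deletion replicate 2 (-2.11) and PTGIR in prefix 15 alone (-0.40). So did PTGES2 without wild-type replicate 3 (0.0429), and PTGFR without wild-type replicate 2 (0.15) or deletion replicate 3 (-0.79). The causes were not tested. No paired analysis was possible because the replicate numbers only follow accession order and pair no animals. The ID prefix shared across the genotypes was fitted as a term instead.

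Counts of all changed genes depended on the settings. Higher and lower genes numbered 26 and 123 as reported. They numbered 9 and 93 with RLE scaling, 6 and 94 with total-count scaling, 21 and 176 with upper-quartile scaling, 77 and 160 with no filter, 573 and 782 with DESeq2, 95 and 349 with voom, 0 and 3 with the ID prefix as a term, and 0 and 0 in prefix 15 alone, where 1608 genes had an unadjusted p under 0.05. Leaving out each library gave 0 to 120 higher and 0 to 639 lower genes, both highest without wild-type replicate 3. Pathway genes past the threshold numbered 1 higher and 2 lower with DESeq2 and 1 and 1 with voom, and leaving out each library gave 0 higher and 0 to 1 lower, the latter ADCY4 without wild-type replicate 3.

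Depth limited PTGIR and PTGER4, with 12 to 64 reads per library. Total-count scaling moved the median log2 fold change of all genes by -0.0908.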

Other observations

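PTGES3L, a gene named for its likeness to PTGES3 and chosen here after its values were seen, was at 3.40, 6.03 and 2.02 CPM in the wild-type animals and at 0.899, 0.735 and 1.12 CPM in the deletion animals. All deletion libraries lay below all wild-type libraries, as they did for 11.2% of all tested genes. Its log2 fold change was -2.04 (SE 0.45; edgeR quasi-likelihood adjusted p 0.0759), while the authors' deposited table lists it as 4.08-fold lower with a false discovery rate of 0.000847.

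PPARG, the nuclear receptor that drives fat cell formation, was left out by the filter on low counts. It stood at 6.29 CPM in wild-type replicate 2 and at 0.259 to 0.577 CPM in the other 5 libraries. Wild-type replicate 2 also had the highest AKR1B1, smooth muscle and Schwann cell marker levels. The authors' deposited table lists PPARG as 5.67-fold lower in the deletion group with a false discovery rate of 0.0479.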
